A study of Mus musculus with 8 samples.

Results

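The BTG and TOB genes encode a small family of antiproliferative proteins, and the mouse genes measured here were Btg1, Btg2, Btg3, Tob1 and Tob2. They were taken by gene name from the probe annotation of the arrays, which gave 6 probes, 1 each for Btg2, Btg3, Tob1 and Tob2 and 2 for Btg1. These 5 genes are 5 of 30139 gene names on the array and 5 of the 17850 that were bright enough to be tested. Where a gene had several probes, the one that was brightest over all arrays stands for it and the other is given beside it. The family was chosen by gene name with earlier results of these data known, in which the differences of Btg2 and Tob1 from NC had been seen, and the probe that stands for a gene was chosen by its mean signal over the arrays. The fitted values below therefore describe these genes and are not independent evidence that the family responds.

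The study measured messenger RNA in mSCC-20 cells, a line from a squamous cell carcinoma of the skin of an FVB/N mouse, after transfection of a microRNA. There were 2 arrays of cells given miR-193b-3p, 2 arrays of cells given miR-365a-3p and 4 arrays of cells given the control microRNA, called NC. The miR-193b arrays and NC replicates 1 and 2 carry a label of 0.2 µg, and the miR-365a arrays and NC replicates 3 and 4 carry a label of 0.6 µg. The labels do not say what this amount refers to. Each microRNA was compared with the NC arrays of its own amount label, so the comparisons share no NC array. All 8 samples came from a single cell line. Nothing in the labels tells if the replicates of a group were grown apart, so a p-value here covers the spread among the arrays at hand and no more.

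BTG and TOB proteins share an amino-terminal domain that binds the deadenylase subunits Cnot7 and Cnot8 of the CCR4-NOT complex, which shortens the poly(A) tails of messenger RNAs. They act as adaptors that bring this complex, or other partners such as transcription factors and the arginine methyltransferase Prmt1, to chosen transcripts or promoters. Forced expression of family members slows entry into S phase in many cell types, and Btg1, Btg2 and Tob1 are linked to quiescence in lymphocytes. Btg2 is a direct target of p53 and was also found as an immediate early gene induced by growth factors and phorbol ester.

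The transfected microRNAs are shown first because every comparison rests on them. The mature sequences are those of RefSeq (mouse build GRCm38.p6), written 5′ to 3′ with the seed, bases 2 to 8, in capitals. RefSeq lists the second as miR-365-3p, where the labels write miR-365a.
mmu-miR-193b-3p: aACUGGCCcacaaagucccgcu
mmu-miR-365-3p: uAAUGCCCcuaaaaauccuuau
The seeds differ, so these microRNAs belong to different seed groups. The mature miR-193b lies at chr16:13449570-13449591 on the plus strand. The same mature miR-365 sequence lies within hairpins of the genes Mir365-1, at chr16:13453895-13453916, and Mir365-2, at chr11:79726467-79726488, both on the plus strand (positions of the mature sequence).

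The promoters of Btg2 and Tob1 are shown because these are the members that passed the test. Each stretch is the 250 bases before the RefSeq start of the gene on GRCm38.p6, read on the strand of the gene. The Btg2 stretch lies at chr1:134079156-134079405 on the minus strand and the Tob1 stretch at chr11:94211204-94211453 on the plus strand. Capitals mark the letters TGACGTCA (the cAMP response element), CCAAT and TATAAA on either strand, a set of motifs chosen after the sequences had been seen.
Btg2: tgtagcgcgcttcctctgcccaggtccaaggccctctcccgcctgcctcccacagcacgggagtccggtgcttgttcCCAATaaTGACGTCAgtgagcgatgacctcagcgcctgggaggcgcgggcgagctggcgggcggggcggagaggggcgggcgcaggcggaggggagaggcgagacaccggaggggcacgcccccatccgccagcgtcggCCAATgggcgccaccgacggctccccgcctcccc
Tob1: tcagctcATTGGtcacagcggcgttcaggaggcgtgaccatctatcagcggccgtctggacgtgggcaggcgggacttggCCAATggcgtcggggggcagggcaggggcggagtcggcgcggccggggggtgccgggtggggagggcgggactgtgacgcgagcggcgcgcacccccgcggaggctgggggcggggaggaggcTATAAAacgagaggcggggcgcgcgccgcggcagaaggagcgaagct
Both stretches were rich in G and C, with 73.2% for Btg2 and 73.6% for Tob1, against a median of 52.4% over 32851 promoter windows of the same length. The windows of the other members were also above this median, with 65.2% for Btg1, 60.4% for Tob2 and 57.2% and 75.2% for the windows of Btg3. The letters CCAAT occurred 2 times in each of the Btg2 and Tob1 windows, and 33.8% of all windows hold them on either strand. They also occurred 1 time in the Btg1 window and in each Btg3 window, and not in that of Tob2. TGACGTCA was found 1 time in the Btg2 window, with its first base 166 bases before the start, and in none of the windows of Tob1, Btg1, Tob2 and Btg3. Of all windows, 1.55% hold it. TATAAA was found in the windows of Tob1 and Btg1 and in 12.4% of all windows. The letters GGGCGG occurred 3 times each in the Btg2 and Tob1 windows and in 32.7% of all windows. They occurred 2 times in the windows of Btg1 and Tob2 and in 1 window of Btg3. These matches describe letters in a window and say nothing of what binds there.

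The arrays were single-colour Agilent arrays with 43020 gene spots each. Of these spots, 51.4% to 54.6% were well above background on arrays labelled 0.2 and 58.9% to 62.1% on arrays labelled 0.6, with 0 saturated spots. All arrays labelled 0.6 shared slide 4. NC replicate 1 and miR-193b replicate 1 shared slide 1, NC replicate 2 was on slide 2 and miR-193b replicate 2 on slide 3. Amount label and slide therefore cannot be told apart between the sets. Of 14 keratinocyte and epithelial markers, 13 or 14 were well above background on every array. Their summed level, on the log2 scale, was 9.75 on both miR-193b arrays against 9.43 and 9.44 on NC labelled 0.2, and 9.53 and 9.81 on the miR-365a arrays against 9.56 and 9.78 on NC labelled 0.6. The part of this marker shift in the results was not tested. Of the markers of other cell types, 1 to 3 of 6 fibroblast, 3 or 4 of 6 leukocyte, 2 to 4 of 6 endothelial and 2 to 4 of 5 melanocyte genes were well above background on an array. Pdgfra, Cd68, Cd3e, Itgam, Kdr, Esam, Mitf and Mlana were so on all 8 arrays, while Col3a1, Dcn, Lum, Lyz2, Cdh5, Tek and Dct were so on none.

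All 6 member probes were well above background on all 8 arrays. Levels are given as normalised log2 signal, the log2 of the spot's processed intensity after subtracting that array's 75th percentile, so that 0 is the level of the 75th percentile spot. A difference is the microRNA minus NC on this scale and is relative to the rest of the array. Different probes bind with different strength, so levels are not compared between genes. In these bulk RNA samples, a higher level in each cell and more cells with a high level cannot be told apart.

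Btg2, the p53-inducible family member, had the largest difference in the family. Its probe lies on chromosome 1 at 135972153 to 135972094 of build mm9, where a start above the end marks the minus strand. Its normalised log2 signal was 1.07 and 1.69 on the miR-193b arrays, against -0.22 and -0.18 on the NC arrays labelled 0.2. Both miR-193b arrays were far above every NC array, and they differed more from each other than the NC arrays did. Btg2 rose 2.98-fold after miR-193b (log2 difference 1.58 ± 0.22 SE, 95% interval 1.04 to 2.12, n = 2 each, adjusted p = 0.0305 by limma over all genes). It ranked 183 of 17850 from the top. The rise was already present in the processed intensities, which were 2470 and 3656 on the miR-193b arrays against 1408 and 1230 on the NC arrays.

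In the miR-365a comparison the same probe read 0.34 and 0.55, against -0.26 and 0.02 on the NC arrays labelled 0.6. The groups did not overlap, but the gap was smaller than after miR-193b. The difference of 0.56 ± 0.22 SE, or 1.48-fold, did not pass the threshold over all genes (95% interval 0.02 to 1.10, n = 2 each, adjusted p = 0.146 by limma). The miR-193b effect exceeded the miR-365a effect by 1.01 ± 0.32 on the log2 scale (95% interval 0.25 to 1.78), which did not pass either (adjusted p = 0.144 by limma). Across the groups, Btg2 averaged 1.38 ± 0.44 after miR-193b, 0.44 ± 0.14 after miR-365a, -0.12 ± 0.20 on NC labelled 0.6 and -0.20 ± 0.03 on NC labelled 0.2 (SD, n = 2 each). The NC groups overlapped, and the difference between them, 0.6 minus 0.2, was 0.08 ± 0.22 SE.

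The Btg2 rise after miR-193b had the same direction under every alternative, but its call was lost under many of them. Leaving out any array except miR-193b replicate 1 ended the call (log2 differences of 1.27 to 1.60, adjusted p of 0.0569 to 0.0962), and without that array the difference was 1.89 with an adjusted p of 0.0361 by limma. Within slide 1 the difference was 1.29, and between slides 3 and 2 it was 1.87. With slide as a fixed block the call was lost. The difference was then that of slide 1 alone, 1.29, because slides 2 and 3 hold 1 array each.

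**Figure D1:**
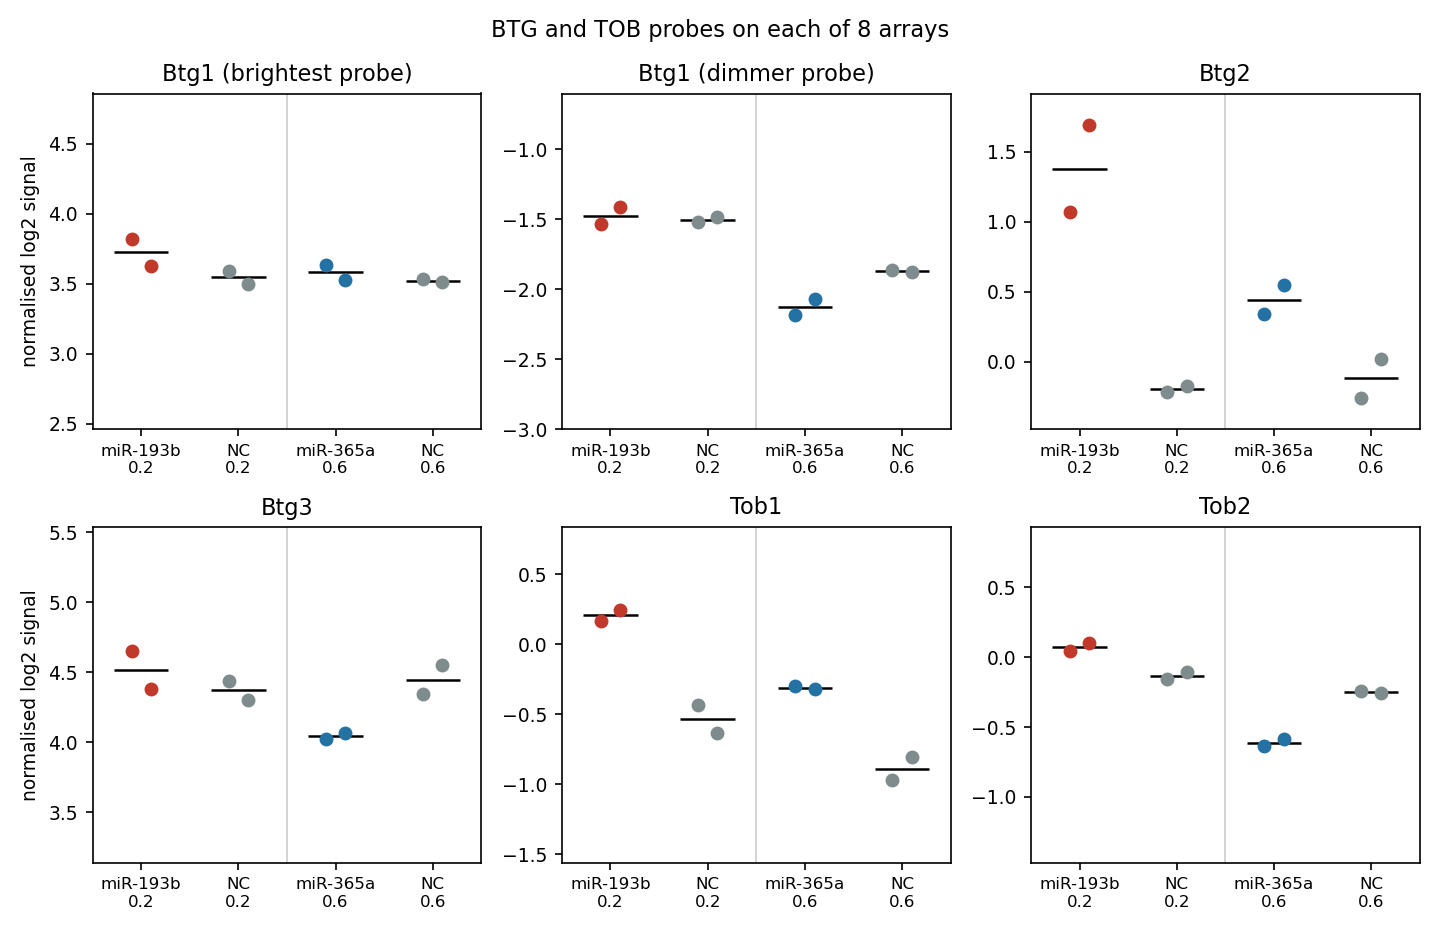
Normalised log2 signal of the 6 BTG and TOB probes on each of the 8 arrays, with each panel spanning the same number of log2 units; points are arrays, bars are group means, and the numbers under the group names are the amount labels in µg. For Btg2 the miR-193b arrays, at 1.07 and 1.69, sit above all others, and for Tob1 the arrays of each microRNA sit above their own NC arrays.

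Tob1, named as a transducer of the receptor Erbb2, was the only member that passed the test in both comparisons. Its probe lies on chromosome 11 at 94075956 to 94076015 (mm9, plus strand). The normalised log2 signal was 0.17 and 0.25 on the miR-193b arrays, against -0.43 and -0.64 on the NC arrays labelled 0.2. Replicates lay close together and the groups did not overlap. Tob1 rose 1.67-fold after miR-193b (log2 difference 0.74 ± 0.13 SE, 95% interval 0.44 to 1.05, n = 2 each, adjusted p = 0.0417 by limma), and it ranked 1110 of 17850 from the top.

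After miR-365a, Tob1 read -0.30 and -0.32, against -0.97 and -0.81 on the NC arrays labelled 0.6. Again both transfected arrays were above both NC arrays. Tob1 rose 1.49-fold (log2 difference 0.58 ± 0.13 SE, 95% interval 0.27 to 0.88, n = 2 each, adjusted p = 0.0302 by limma). The effects of the microRNAs on Tob1 differed by 0.16 ± 0.18 (miR-193b minus miR-365a, 95% interval -0.27 to 0.59, adjusted p = 0.652 by limma), an interval wide enough for either to be the stronger.

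The Tob1 level also differed between the NC groups. NC labelled 0.6 averaged -0.89 ± 0.12 and NC labelled 0.2 averaged -0.53 ± 0.15 (SD, n = 2 each), a difference of -0.36 ± 0.13 SE with an adjusted p of 0.104 by limma. In order of level, miR-193b stood highest at 0.21 ± 0.06, then miR-365a at -0.31 ± 0.01, then NC labelled 0.2 and NC labelled 0.6, and no neighbours in this order shared a range. Because the sets differ in label and slide, miR-365a arrays and NC arrays labelled 0.2 are not a comparison of treatments.

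On slide 1 the uncentred Tob1 intensities were close, at 1321 on the miR-193b array and 1213 on the NC array, while the 75th percentiles subtracted from them were 1177 and 1637. Between slides 3 and 2 it was 1346 on the miR-193b array against 894 on the NC array, and on the arrays labelled 0.6 it was 1480 and 1138 after miR-365a against 838 and 804 on NC. The Tob1 call after miR-193b was lost on leaving out any of the 8 arrays and with slide as a fixed block, where the difference was that of slide 1 alone, 0.60. Without a miR-193b array or NC replicate 1 or 2, which left a group with a single array, the difference was 0.64 to 0.84. Without any other array it stayed at 0.74 (adjusted p 0.0706 to 0.0942 by limma), as only the shared spread and the adjustment changed. The call after miR-365a was lost without any miR-365a or miR-193b array or NC replicate 3 or 4, and with slide as a fixed block (0.58, adjusted p = 0.0515 by limma). Without a miR-365a array or NC replicate 3 or 4, which left a group with a single array, the difference was 0.50 to 0.66. Without either miR-193b array, which does not enter the difference, it stayed at 0.58 (adjusted p = 0.0552 by limma).

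Counted together, 2 of the 5 members rose after miR-193b, none fell and 3 did not pass. Over all genes tested, 2.90% were called in that comparison (1.73% higher, 1.17% lower). After miR-365a, 1 member rose, none fell and 4 did not pass, against 15.9% of all genes called (7.84% higher and 8.05% lower), so 1 of 5 is near the background there. At an unadjusted p under 0.05 by limma, 2 members were higher and 0 lower after miR-193b, and 2 were higher and 2 lower after miR-365a. At that p, 21.4% of all genes (12.5% higher and 8.94% lower) passed after miR-193b and 31.3% (16.7% higher and 14.6% lower) after miR-365a. The median difference of the members was 0.21 after miR-193b, against 0.05 over all genes, and 0.06 after miR-365a, against 0.02 over all genes. On the centred scale, the arrays of 4 members did not overlap after miR-193b, all 4 higher, and this held for 52.4% of all genes (30.0% higher and 22.4% lower). The arrays of 4 members did not overlap after miR-365a either, 2 of them higher and 2 lower, against 61.5% of all genes (33.8% higher and 27.8% lower). The lower members, by overlap and by unadjusted p, were Tob2 and Btg3. The probe counted as Btg3 here cannot be assigned to that gene alone, as described below. The contrast of the effects, miR-193b minus miR-365a, called 0 of the 5 members by limma, against 3.54% of all genes, and 3 members had an unadjusted p under 0.05, as did 20.2% of all genes. The contrast of the NC groups also called 0 members, against 15.6% of all genes, and 1 member, Tob1, had an unadjusted p under 0.05, as did 34.7% of all genes.

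**Figure D2:**
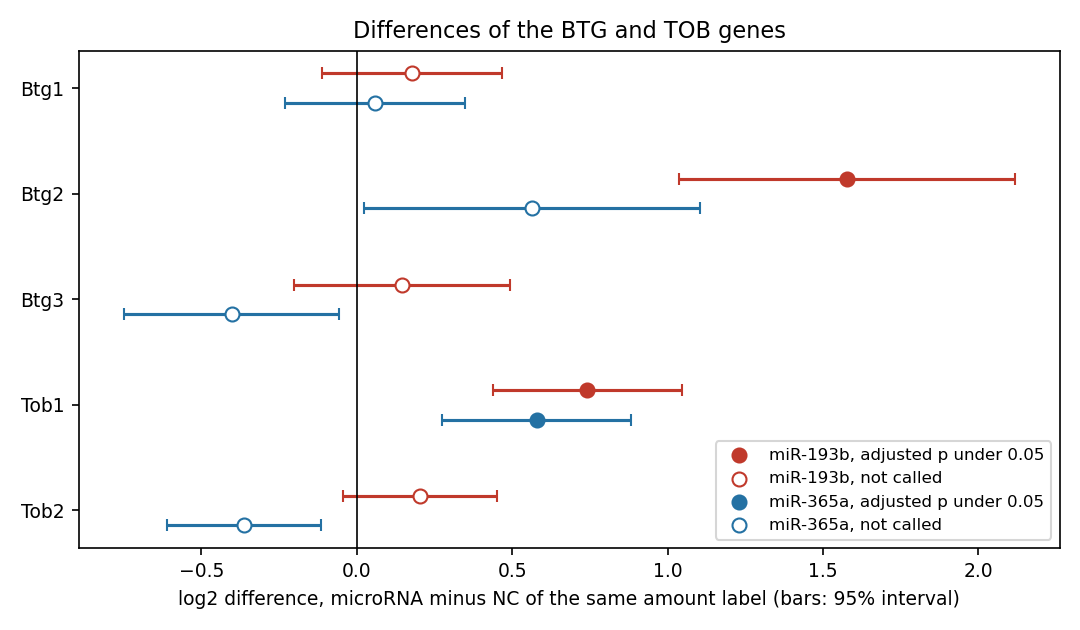
Log2 difference of each member from the NC arrays of the same amount label; points are limma estimates, bars are 95% intervals, and filled points have an adjusted p under 0.05. Btg2 after miR-193b (1.58) and Tob1 after each microRNA (0.74 and 0.58) are filled, while Tob2 and Btg3 lie on opposite sides of 0 in the comparisons, except that Btg3 after miR-193b was -0.0046 in the deposited log2 values.

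Tob2, the close relative of Tob1, did not pass the test in either comparison. Its probe lies on chromosome 15 at 81679547 to 81679488 (mm9, minus strand). The normalised log2 signal was 0.05 and 0.10 on the miR-193b arrays, against -0.16 and -0.11 on the NC arrays labelled 0.2. The groups did not overlap, but the difference of 0.20 ± 0.10 SE did not pass (95% interval -0.04 to 0.45, n = 2 each, adjusted p = 0.304 by limma). Before centring, Tob2 was lower on the miR-193b arrays, with processed intensities of 1215 and 1213 against 1468 and 1290 on NC.

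After miR-365a, Tob2 read -0.64 and -0.59, against -0.24 and -0.26 on the NC arrays labelled 0.6. Both miR-365a arrays were below both NC arrays by more than the spread within either group. The difference of -0.36 ± 0.10 SE, or 1.29-fold lower, had an adjusted p of 0.0615 by limma (95% interval -0.61 to -0.12, n = 2 each), just above the threshold. It passed under quantile normalization (adjusted p = 0.0464 by limma), with slide as a random block (0.0398) and when only genes well above background on all 8 arrays were tested (0.0440). Under the other 16 of 19 alternatives it did not pass, among them slide as a fixed block (adjusted p = 0.105 by limma) and no filter on dim probes (0.190). The effects of the microRNAs on Tob2 differed by 0.57 ± 0.14 (95% interval 0.22 to 0.92), with an adjusted p of 0.0915 by limma.

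Tob2 averaged 0.07 ± 0.04 after miR-193b, -0.61 ± 0.04 after miR-365a, -0.13 ± 0.03 on NC labelled 0.2 and -0.25 ± 0.01 on NC labelled 0.6 (SD, n = 2 each). The miR-193b arrays were the highest and the miR-365a arrays the lowest, and no groups shared a range. Tob1 and Tob2 thus stood on the same side of their NC arrays after miR-193b and on opposite sides after miR-365a, where only Tob1 passed the test.

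Btg1, first found at a chromosomal translocation in a leukaemia, had 2 probes. The brightest lies on chromosome 10 at 96082071 to 96082130 and the dimmer at 96085358 to 96085417 (mm9, plus strand). The brightest read 3.82 and 3.63 on the miR-193b arrays against 3.59 and 3.50 on NC labelled 0.2, and 3.64 and 3.52 on the miR-365a arrays against 3.53 and 3.51 on NC labelled 0.6. Only the miR-193b arrays stood clear of their NC arrays, and by little. Before centring these groups overlapped, with processed intensities of 16600 and 14021 on the miR-193b arrays against 19750 and 15746 on NC.

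Neither difference of Btg1 passed the test. It was 0.18 ± 0.12 SE after miR-193b (95% interval -0.11 to 0.47, adjusted p = 0.428 by limma) and 0.06 ± 0.12 SE after miR-365a (95% interval -0.23 to 0.35, adjusted p = 0.818 by limma). These intervals leave out changes of the size of the Btg2 rise. All 4 groups lay between 3.52 ± 0.01 on NC labelled 0.6 and 3.72 ± 0.13 after miR-193b (SD, n = 2 each), and neighbours in the order overlapped.

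The dimmer Btg1 probe gave another picture after miR-365a. It read -2.19 and -2.07 there, against -1.87 and -1.88 on NC labelled 0.6, and -1.54 and -1.41 after miR-193b against -1.52 and -1.48 on NC labelled 0.2. In a fit over 23275 probes its difference was -0.26 ± 0.11 SE after miR-365a (adjusted p = 0.182 by limma) and 0.03 ± 0.11 SE after miR-193b (adjusted p = 0.910 by limma). The probes of Btg1 thus pointed in opposite directions after miR-365a, neither passed the test, and their mean gave -0.10.

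Btg3, the family member reported to bind E2f1, was read by a probe that cannot be assigned to it alone. The file places the probe on chromosome 17 at 50839065 to 50839124 (mm9), whereas RefSeq has the Btg3 gene on chromosome 16, and the accessions the file lists for it include the transcribed pseudogene Gm7334 on chromosome 17. It read 4.65 and 4.38 on the miR-193b arrays against 4.43 and 4.30 on NC labelled 0.2, and 4.02 and 4.06 on the miR-365a arrays against 4.34 and 4.55 on NC labelled 0.6. After miR-193b the arrays overlapped, while both miR-365a arrays were the lowest of all 8.

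The signal shared by Btg3 and Gm7334 did not pass in either comparison. Its difference was 0.14 ± 0.14 SE after miR-193b (95% interval -0.20 to 0.49, adjusted p = 0.581 by limma), and in the deposited log2 values it was -0.0046. After miR-365a it was -0.40 ± 0.14 SE, or 1.32-fold lower (95% interval -0.75 to -0.06, n = 2 each, adjusted p = 0.112 by limma). The miR-193b effect minus the miR-365a effect was 0.55 ± 0.20 (95% interval 0.06 to 1.04, adjusted p = 0.204 by limma). Group means were 4.51 ± 0.19 after miR-193b, 4.04 ± 0.03 after miR-365a, 4.45 ± 0.14 on NC labelled 0.6 and 4.37 ± 0.09 on NC labelled 0.2 (SD, n = 2 each), and all but the miR-365a arrays overlapped.

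Among other genes with BTG names, Btg1c on the X chromosome was the only one bright enough to be tested. It differed by 0.17 ± 0.15 SE after miR-193b (adjusted p = 0.540 by limma) and by 0.15 ± 0.15 SE after miR-365a (adjusted p = 0.577 by limma). Btg4 and Btg1b were not tested.

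**Figure D3:**
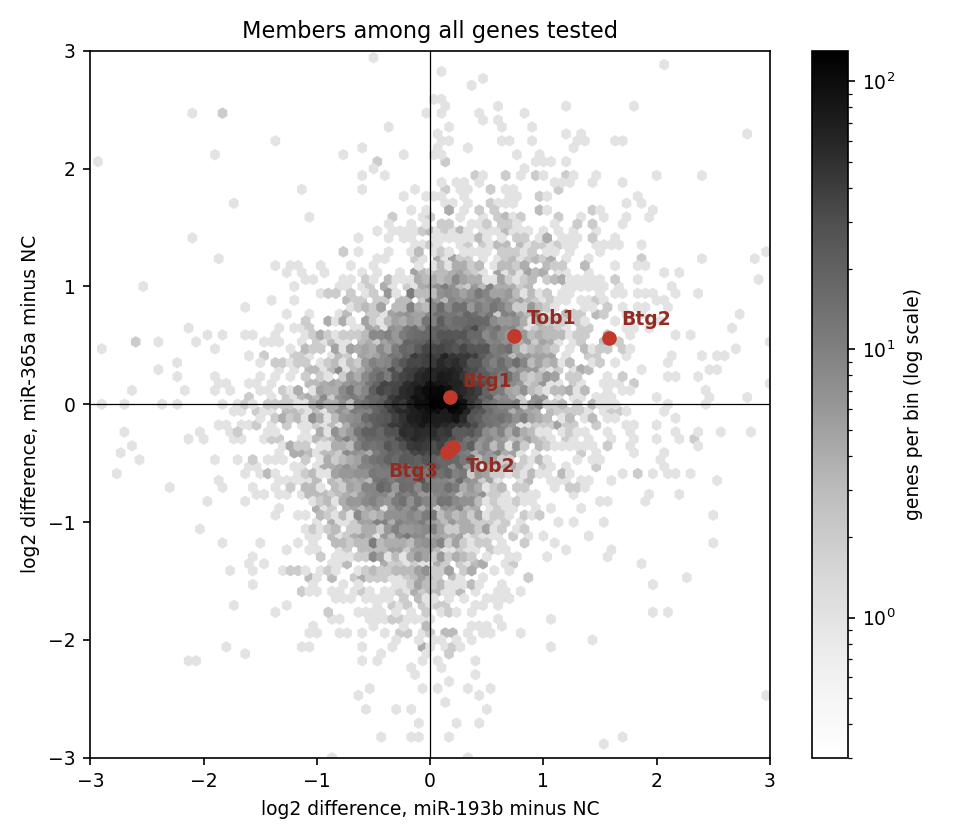
Log2 difference after miR-193b (horizontal) against that after miR-365a (vertical) for all genes tested, with the number of genes per bin in grey on a log scale and the 5 members in red; 82 genes lie outside the axes. Btg2 and Tob1 are at the upper right, Btg1 is near the centre, and Tob2 and Btg3 lie together below the horizontal line.

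The genes whose pattern over the 8 arrays was most like that of Btg2 and Tob1 were found by the root mean square difference of log2 levels after subtracting the NC mean of each set. This compared 14567 genes well above background on all arrays. Nearest to Btg2 were Plcd1, a phospholipase C (0.183 log2 units, Pearson r = 0.971), Gm13580 (0.186, r = 0.961) and Tlr5, the flagellin receptor (0.194, r = 0.963). Plcd1 differed by 1.35 after miR-193b and 0.67 after miR-365a, Gm13580 by 1.44 and 0.77, and Tlr5 by 1.58 and 0.83. These genes were picked for closeness to Btg2 on these same arrays, so a like pattern was set by the choice.

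Nearest to Tob1 were an unnamed probe (0.057 log2 units, r = 0.991), Khk, the ketohexokinase of fructose metabolism (0.058, r = 0.986), and Dcaf11, a substrate receptor of a ubiquitin ligase (0.059, r = 0.999). Khk differed by 0.74 after miR-193b and 0.60 after miR-365a, and Dcaf11 by 0.66 and 0.50. All values are over the same 8 arrays and describe closeness only.

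The deadenylation machinery that BTG and TOB proteins bind was next described, as a list of 19 genes that were all tested. After miR-193b, 0 rose, 1 fell and 18 did not pass by limma (median -0.19, against 0.05 over all genes), with 0 higher and 3 lower at an unadjusted p under 0.05 (12.5% and 8.94% of all genes). After miR-365a, 2 rose, 4 fell and 13 did not pass (median -0.01, against 0.02 over all genes). Over all genes, 1.73% rose and 1.17% fell after miR-193b, and 7.84% rose and 8.05% fell after miR-365a. At an unadjusted p under 0.05 by limma, 3 of the list were higher and 5 lower after miR-365a (16.7% and 14.6% of all genes). The direct binding partners of the family did not pass: Cnot7 differed by -0.21 ± 0.26 SE and Cnot8 by -0.11 ± 0.15 SE after miR-193b, and by -0.21 ± 0.26 SE and 0.11 ± 0.12 SE after miR-365a. The Cnot8 spot of NC replicate 2 carried an outlier mark and was left out of its fit.

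Cnot6, a catalytic deadenylase of the same complex, fell in both comparisons. It read 3.43 and 3.39 on the miR-193b arrays against 4.28 and 4.64 on NC labelled 0.2, and 3.34 and 3.15 on the miR-365a arrays against 4.44 and 4.17 on NC labelled 0.6. It fell 2.07-fold after miR-193b (log2 difference -1.05 ± 0.17 SE, adjusted p = 0.0380 by limma) and 2.09-fold after miR-365a (-1.06 ± 0.17 SE, adjusted p = 0.0128 by limma). All 3 probes of Cnot6 were called lower in each comparison when probes were fitted singly.

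After miR-365a the subunit gene Cnot9 fell 2.10-fold (-1.07 ± 0.16 SE, adjusted p = 0.0106 by limma). The genes of the GW182 proteins, which link microRNA complexes to CCR4-NOT, went both ways: Tnrc6c fell 2.28-fold (-1.19 ± 0.25 SE, adjusted p = 0.0264) and Tnrc6a rose 1.71-fold (0.78 ± 0.17 SE, adjusted p = 0.0331 by limma). The other calls were Cnot6l, which fell by 0.52, and Cnot11, which rose by 0.44 on the log2 scale, named after their values were seen. The second probe of Cnot11 differed by -0.05, and that of Cnot6l by -0.40, and neither was called.

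Of 15 reported partners and readouts of BTG and TOB proteins, 13 were tested. After miR-193b, 0 rose and 0 fell by limma (median -0.16), where 1.73% of all genes rose and 1.17% fell. At an unadjusted p under 0.05 by limma, 2 were higher and 4 lower (12.5% and 8.94% of all genes). After miR-365a, 0 rose, 4 fell and 9 did not pass (median -0.13), where 7.84% of all genes rose and 8.05% fell. At that unadjusted p, 3 were higher and 5 lower (16.7% and 14.6% of all genes). Ccnd1, the cyclin whose promoter Btg2 is reported to repress, read 2.29 and 2.73 on the miR-365a arrays against 4.50 and 4.89 on NC, and fell 4.55-fold (-2.19 ± 0.21 SE, adjusted p = 0.00424 by limma). After miR-193b it differed by -0.57 ± 0.21 SE (adjusted p = 0.193 by limma).

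Skp2, part of a ubiquitin ligase reported to degrade human TOB1, fell 2.42-fold after miR-365a (-1.28 ± 0.17 SE, adjusted p = 0.00797 by limma). The kinase gene Rps6ka1, whose product is reported to phosphorylate Tob1, fell 1.48-fold (-0.57 ± 0.10 SE, adjusted p = 0.0184), and E2f1 fell 1.62-fold (-0.70 ± 0.15 SE, adjusted p = 0.0275 by limma). Prmt1, the Btg1 and Btg2 partner, differed by -0.26 ± 0.14 SE after miR-193b and -0.29 ± 0.14 SE after miR-365a and did not pass, and its second probe differed by -0.55 and -0.17.

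Genes known to share inducers with Btg2 were described in the same way. Of 24 other p53 targets, all tested, 1 rose, 0 fell and 23 did not pass after miR-193b (median 0.28, against 0.05 over all genes), and 7 rose, 1 fell and 16 did not pass after miR-365a (median 0.52, against 0.02). Over all genes, 1.73% rose and 1.17% fell after miR-193b, and 7.84% rose and 8.05% fell after miR-365a. At an unadjusted p under 0.05 by limma, 7 were higher and 1 lower after miR-193b (12.5% and 8.94% of all genes). At that p, 13 were higher and 2 lower after miR-365a (16.7% and 14.6% of all genes). Bbc3, a BH3-only death gene, rose in both, by 2.24-fold after miR-193b (1.16 ± 0.21 SE, adjusted p = 0.0458) and 3.05-fold after miR-365a (1.61 ± 0.21 SE, adjusted p = 0.00752 by limma). With probes fitted singly, Bbc3 after miR-193b was at the threshold and not called (adjusted p = 0.05003 by limma). Cdkn1a and Mdm2, the most used p53 readouts, did not pass: Cdkn1a differed by 0.35 ± 0.17 SE after miR-193b and 0.42 ± 0.17 SE after miR-365a, and Mdm2 by 0.06 ± 0.14 SE and 0.00 ± 0.14 SE. The 3 probes of Cdkn1a disagreed, ranging from -0.28 to 0.35 after miR-193b and from 0.24 to 0.99 after miR-365a, and none was called.

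After miR-365a, where Btg2 itself did not pass, the p53 targets Trp53inp1 (1.48 ± 0.16 SE, adjusted p = 0.00477), Pmaip1 (1.50 ± 0.17 SE, adjusted p = 0.00566) and Tnfrsf10b (0.81 ± 0.14 SE, adjusted p = 0.0151 by limma) rose. Trp53inp1, a stress-induced nuclear protein gene, differed by -0.44 ± 0.16 SE after miR-193b, where its other probe differed by 0.20.

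Of 26 immediate early genes, 24 were tested. After miR-193b 0 rose and 0 fell by limma (median -0.11), where 1.73% of all genes rose and 1.17% fell. At an unadjusted p under 0.05 by limma, 0 were higher and 1 lower (12.5% and 8.94% of all genes). After miR-365a, 1 rose, 6 fell and 17 did not pass (median -0.61), where 7.84% of all genes rose and 8.05% fell. At that unadjusted p, 1 was higher and 11 lower (16.7% and 14.6% of all genes). The zinc finger genes Klf10 (-0.94 ± 0.13 SE, adjusted p = 0.00829) and Klf4 (-0.91 ± 0.16 SE, adjusted p = 0.0166) and the phosphatase gene Dusp1 (-1.02 ± 0.19 SE, adjusted p = 0.0184 by limma) fell. Zfp36l1, encoding a protein that promotes decay of AU-rich messenger RNAs, rose (0.84 ± 0.15 SE, adjusted p = 0.0177 by limma).

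Of 16 FOXO factors, reported FOXO targets and quiescence genes, 15 were tested. After miR-193b 0 rose and 0 fell by limma, where 1.73% of all genes rose and 1.17% fell. The median was 0.48, with 12 of the 15 values above 0. At an unadjusted p under 0.05 by limma, 4 were higher and 1 lower (12.5% and 8.94% of all genes). After miR-365a, 4 rose, 2 fell and 9 did not pass (median 0.60), where 7.84% of all genes rose and 8.05% fell. At that unadjusted p, 6 were higher and 2 lower (16.7% and 14.6% of all genes). Txnip, the thioredoxin-interacting arrestin, rose 4.77-fold (2.25 ± 0.23 SE, adjusted p = 0.00449), the CDK inhibitor gene Cdkn2b rose 2.89-fold (1.53 ± 0.20 SE, adjusted p = 0.00797), and the mitochondrial kinase gene Pink1 rose 1.80-fold (0.85 ± 0.15 SE, adjusted p = 0.0181 by limma). Gabarapl1, an autophagy gene, fell 1.93-fold (-0.95 ± 0.15 SE, adjusted p = 0.0137 by limma).

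Genes that mark proliferating cells were described next, and a link between them and the member levels was not tested. Of 20, 18 were tested, and 17 values were below 0 after miR-193b and 16 after miR-365a. After miR-193b, 0 rose, 2 fell and 16 did not pass by limma (median -0.54, against 0.05 over all genes), where 1.73% of all genes rose and 1.17% fell. At an unadjusted p under 0.05 by limma, 0 were higher and 11 lower (12.5% and 8.94% of all genes). The called genes were Bub1b of the spindle checkpoint (-0.74 ± 0.12 SE, adjusted p = 0.0399) and Ccna2, the S phase cyclin (-1.02 ± 0.18 SE, adjusted p = 0.0427 by limma). After miR-365a, 0 rose, 11 fell and 7 did not pass (median -0.999, against 0.02), where 7.84% of all genes rose and 8.05% fell. At that unadjusted p, 0 were higher and 13 lower (16.7% and 14.6% of all genes).

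The falls after miR-365a included the replication licensing genes Cdc6, 3.85-fold (-1.95 ± 0.19 SE, adjusted p = 0.00442), and Mcm5, 3.17-fold (-1.66 ± 0.20 SE, adjusted p = 0.00617). Bub1b fell 2.15-fold (-1.10 ± 0.12 SE, adjusted p = 0.00522), and Birc5, the survivin gene, fell 2.44-fold (-1.29 ± 0.17 SE, adjusted p = 0.0083 by limma). More of the proliferation genes were called after miR-365a than after miR-193b. The comparisons also differed in the share of all genes called, 15.9% and 2.90%, and whether the lists differ between them was not tested.

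**Figure D4:**
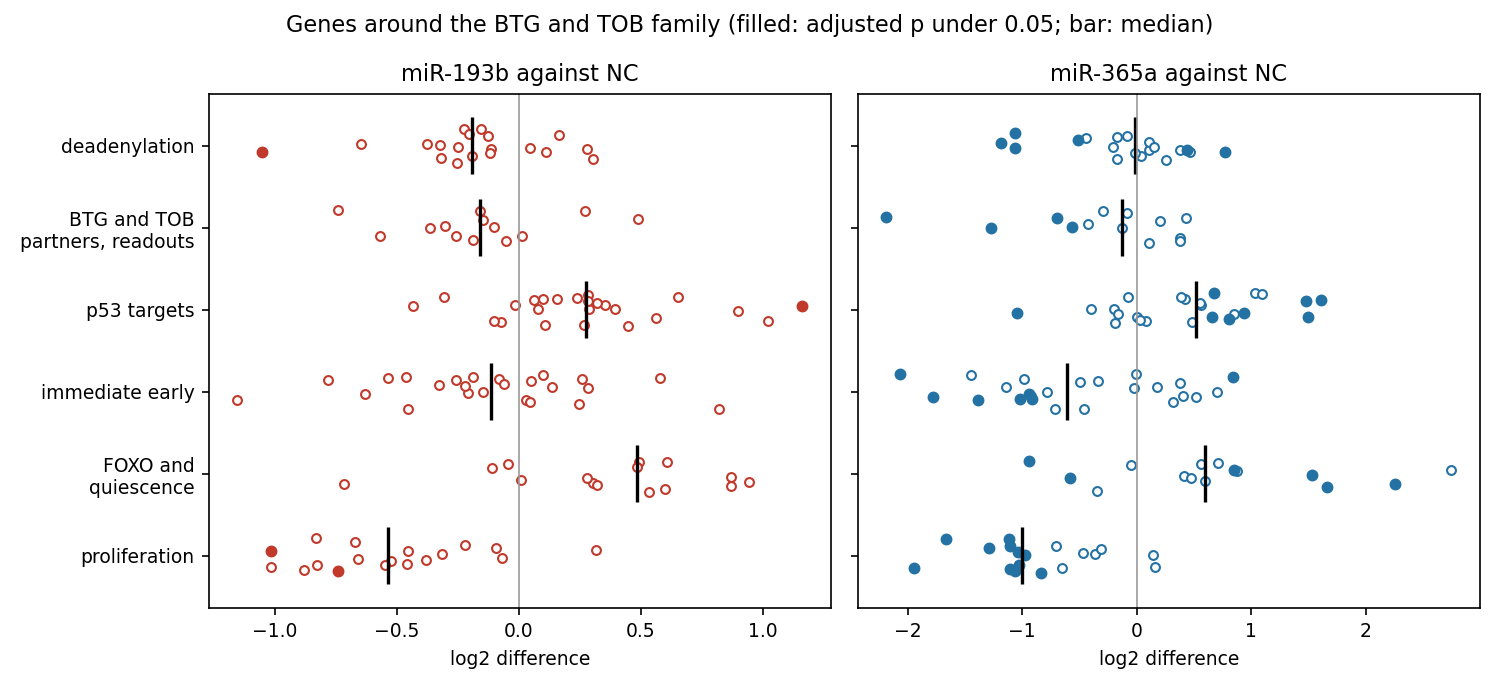
Log2 difference from NC of the genes in 6 lists around the BTG and TOB family, after miR-193b (left) and miR-365a (right); each point is a gene, filled where its adjusted p is under 0.05, and bars are list medians. The proliferation list has medians of -0.54 and -0.999, and the p53 target list medians of 0.28 and 0.52.

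Marker genes of other cell types that passed the test were few. Esam, an endothelial junction gene, rose after miR-193b (0.89 ± 0.11 SE, adjusted p = 0.0243 by limma), while Cdh5 and Tek were not well above background. On the endothelial list, 2 and 3 of 6 genes were well above background on the miR-193b arrays against 3 of 6 on both NC arrays, and the summed log2 levels were 0.65 and 0.42 against 0.73 and 0.27. Mitf, a melanocyte factor gene, fell after miR-365a (-0.68 ± 0.14 SE, adjusted p = 0.0260 by limma), while Dct was not well above background. On the melanocyte list, 4 of 5 genes were well above background on every array labelled 0.6, and the summed log2 levels were 0.43 and 0.38 on the miR-365a arrays against 0.77 and 0.96 on NC. The part of these markers in the members' values was not tested. Among the keratinocyte and epithelial markers, Itga6 fell (-0.80 ± 0.14 SE, adjusted p = 0.0171) and Krt8 rose (0.61 ± 0.15 SE, adjusted p = 0.0400 by limma) after miR-365a. The second probe of Itga6 differed by 0.18 and was not called.

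**Figure D5:**
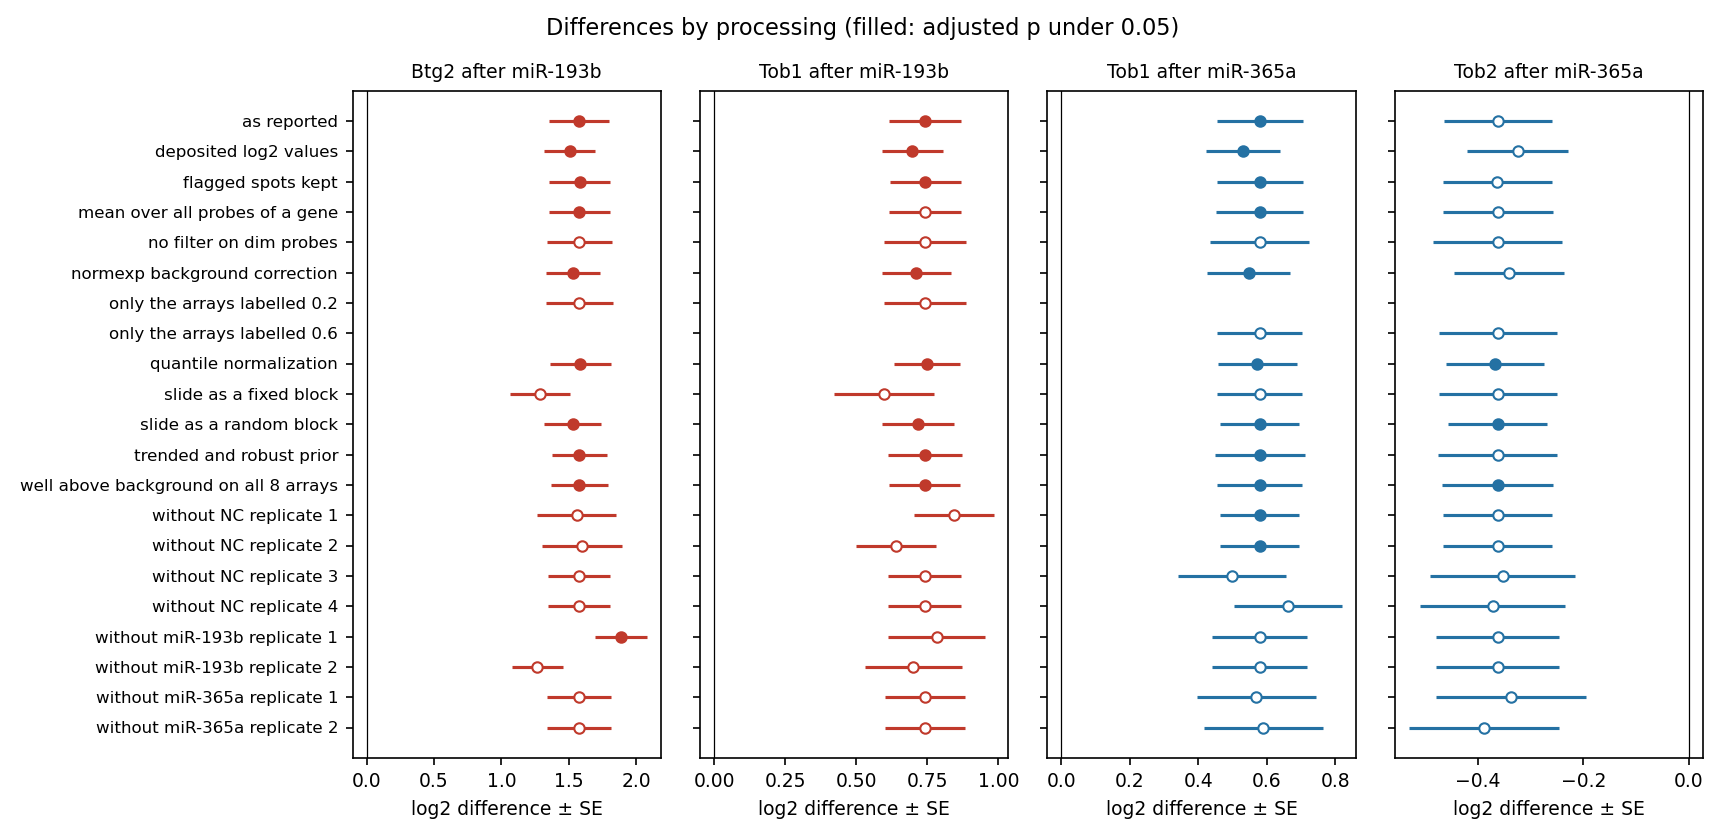
Log2 differences ± SE of Btg2 and Tob1 after miR-193b and of Tob1 and Tob2 after miR-365a under each processing alternative; filled points have an adjusted p under 0.05. The estimates stay on the same side of 0, with Btg2 between 1.27 and 1.89, while the points change between filled and open.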

How the data were processed

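Total RNA was labelled with Cy3 and read on 8 single-colour arrays. The deposited scanner files give spot intensity, which is the processed signal (background subtracted, detrended, not scaled between arrays) made with Agilent Feature Extraction version 10.7.3.1, per the file headers. A deposited table of log2 values of the same arrays, whose background correction and normalization are not stated, was an alternative; each of its columns had a median of 7.04 to 7.05, and its r with the same array's scanner values was 0.965 to 0.981 across spots. The submitters' processing notes name limma. Probe positions are those of the files (mm9).

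Spots with an outlier mark were left out, log2 signals were centred on the 75th percentile of each array, and 39429 probes were named through RefSeq (27508 by accession, 3544 by symbol, 404 by synonym, 7973 by the file). The brightest probe stood for each of 30139 names. A gene was tested where both arrays of some group and amount label were well above background, which held for 17850. All 8 arrays entered 1 model in limma 3.58.1 (lmFit, eBayes; R 4.3.3) with amount label, miR-193b and miR-365a as terms, leaving 4 residual degrees of freedom beside a prior of 2.3. The Benjamini-Hochberg adjustment ran over all genes, and called means an adjusted p below 0.05. Differences between effects and between NC groups were contrasts of this fit. The fit was checked on simulated data, with 66 or 67 changed genes of each size in each comparison among 17785. It recovered 0% of 1.41-fold changes and 74.2% of 4-fold changes in each comparison. Of 2-fold changes it recovered 35.8% for miR-193b and 25.4% for miR-365a. A member that did not pass may therefore still have changed by such amounts. Precision is limited by the number of arrays.

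The members and lists were chosen with earlier results of these data known. Named genes were the 5 members, up to 4 called members of each list with the smallest p in each comparison, and the 3 genes most like each called member; Cnot7, Cnot8, Cnot6l, Cnot11, Prmt1, Cdkn1a, Mdm2 and Btg1c were added as list members after their values were seen. Alternatives were the deposited values, normexp with an offset of 50, quantile normalization, filters, the mean over probes, spots with an outlier mark kept, a trended and robust prior, slide as a block, each set alone and leaving out each array. Python 3.11.15, pandas 2.3.3, numpy 2.4.6 and matplotlib 3.10.9 were also used.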

Additional observations from a re-analysis of the deposited data

How the results depend on the processing

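The direction of every member difference was kept under all alternatives with 2 exceptions: Btg1 after miR-365a was -0.0996 with the mean over all probes, and Btg3 after miR-193b was -0.0046 in the deposited values. With no filter on dim probes, which tests more genes, the calls of Btg2 (1.58, adjusted p = 0.109 by limma) and Tob1 (0.74, 0.153) after miR-193b and of Tob1 after miR-365a (0.58, 0.0991) were lost, leaving 0 members called in each. On the arrays labelled 0.2 alone, which has fewer arrays, Btg2 (1.58, adjusted p = 0.145 by limma) and Tob1 (0.74, 0.162) were not called, and on those labelled 0.6 alone Tob1 was not (0.58, 0.0515), again leaving 0. Slide as a fixed block gave 1.29 for Btg2 and 0.60 for Tob1 after miR-193b, the differences of slide 1 alone, because slides 2 and 3 hold 1 array each. After miR-365a it gave the same values as the arrays labelled 0.6 alone (0.58 for Tob1, adjusted p = 0.0515 by limma). No member call was kept under it. With the mean over all probes Tob1 after miR-193b missed (0.74, 0.0507), leaving 1 member. Tob2 after miR-365a was called under quantile normalization (-0.37, 0.0464), with slide as a random block (-0.36, 0.0398) and with the filter on all 8 arrays (-0.36, 0.0440), making 2 members. The causes of these changes were not tested.

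Leaving out each array in turn gave 1.27 to 1.89 for Btg2 and 0.64 to 0.84 for Tob1 after miR-193b, 0.50 to 0.66 for Tob1 and -0.39 to -0.34 for Tob2 after miR-365a, with 0 to 1 members called in each comparison. Over all alternatives the adjusted p by limma was 0.00872 to 0.145 for Btg2 and 0.0170 to 0.204 for Tob1 after miR-193b, 0.0143 to 0.148 for Tob1 after miR-365a and 0.0398 to 0.240 for Tob2 after miR-365a.

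Genes called after miR-193b numbered 517, and 844 with the deposited values, 323 with the mean over probes, 11 without the filter, 1001 with normexp, 171 with slide as a fixed block, 1025 with a trended and robust prior, 891 with the filter on all 8 arrays, 0 on the arrays labelled 0.2 alone and 8 to 276 with an array left out. Genes called after miR-365a numbered 2836, and 1055 without the filter and 601 to 2866 with an array left out. Of the genes called after miR-193b, 59.6% were higher, and 71.1% with normexp, 90.9% without the filter, 51.4% without NC replicate 2 and 41.5% without NC replicate 1, where most calls were lower. At an unadjusted p under 0.05, 3827 genes passed after miR-193b. The labels number no replicates, so replicates were not paired, and arrays were matched only by slide, as a block.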
